A study of Sus scrofa with 16 samples.

Results

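Sugar uptake and glycolysis were followed through 5 genes on a cDNA membrane array: the glucose transporters SLC2A1 and SLC2A3 and the enzymes GAPDH, ENO1 and LDHB. Members were taken by gene symbol in the probe annotation, which gave 5 of 637 named genes and 6 of 1015 probes, since SLC2A3 had a second probe. The samples were whole pig conceptuses (Sus scrofa), that is the embryo with its extraembryonic membranes, hybridised as radiolabelled target on 1 array each. Conceptuses were staged by length and shape into 4 groups of 4 arrays. Small spherical conceptuses measured 1 to 5 mm and large spherical ones 6 to 11 mm, tubular conceptuses measured 13 to 45 mm, and filamentous ones exceeded 100 mm. No treatment or genetic change is named for any stage; breed, age, litter and the number of conceptuses in a sample are not stated in the labels. The arrays of a stage are not stated to come from separate animals, so the p-values measure the spread between these samples, which may be technical.

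Glucose enters cells through facilitative transporters of the SLC2A (GLUT) family, is split to pyruvate by the glycolytic enzymes, and can leave as lactate after reduction by lactate dehydrogenase. SLC2A1 (GLUT1) is the widely expressed transporter of basal glucose uptake, and SLC2A3 (GLUT3) has a high affinity for glucose and is known from neurons and trophoblast. GAPDH oxidises glyceraldehyde 3-phosphate, ENO1 turns phosphoglycerate into phosphoenolpyruvate, and LDHB is the lactate dehydrogenase subunit of heart-type enzyme. GAPDH is also widely used as a reference gene for messenger RNA measurements.

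The arrays of different stages were much alike. Pairs of arrays of 1 stage had Spearman correlations of 0.841 to 0.96 over all probes, pairs from different stages had 0.794 to 0.974, and 4 of 16 arrays were on average most like their own stage. Median intensities were 62.8 to 71.4 per array. The 4 arrays numbered 1 in their titles, 1 for each stage, stood apart on the first principal component (scores of -16.3 to -8.17, against -4.25 to 9.4 for the other 12), so the main differences are also given without them. Trophectoderm, the outer epithelium that makes up most of the conceptus, was represented by 6 of 10 listed markers (KRT8, KRT18, KRT19, PLAC1, GCM1 and SFN). From small spherical to filamentous conceptuses 4 of these were higher and 2 lower (median log2 difference 0.40), and from small spherical to tubular 6 were higher (median 0.45). Over all probes 45.6% and 40.7% were higher in these comparisons (medians -0.03 and -0.06). GCM1, counted as lower in the first, was dim (log2 -0.96 ± 1.2, SE). Its mean intensity was 2.70 in small spherical and 5.48 in filamentous conceptuses, so its sign depends on the scale. PLAC1, a placental gene, was the marker that passed, with 1.46 ± 0.28 (adjusted p = 0.0159) and 1.36 ± 0.28 (adjusted p = 0.046, limma) in these comparisons. PLAC1 passed in 22 and 11 of 28 alternatives; leaving out 1 array ended the first call for small spherical replicates 1 and 4 and filamentous replicates 2, 3 and 4, and the second for 14 of the 16 arrays. KRT18 was 269 ± 39.9 in small spherical and 250 ± 47.4 in filamentous conceptuses (intensity, SD, n = 4). None of the 4 listed epiblast markers was measured. The number of arrays limits the precision of every value that follows.

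None of the 6 probes differed between the 4 stages after adjustment (limma F test, Benjamini-Hochberg over 1014 probes, threshold 0.05), where 0.394% of all probes did. The adjusted p was 0.271 for GAPDH, 0.5 for ENO1, 0.8 for LDHB, 0.822 for the second probe of SLC2A3, 0.973 for SLC2A1 and 1 for the brighter SLC2A3 probe. The unadjusted limma p of GAPDH was 0.016, and that of the other probes above 0.05, a level under which 10.4% of all probes lay. In the 6 differences between stages, 0 of 36 values for these probes passed by limma (lowest adjusted p 0.223). Unadjusted limma p-values below 0.05 were 5 in number, all for GAPDH or ENO1. Over all probes 9.37% lay below that level for large against small spherical, 3.25% for tubular against large spherical, 3.35% for filamentous against tubular, 14.6% for filamentous against small spherical, 11.4% for tubular against small spherical and 6.02% for filamentous against large spherical conceptuses. The shares past the adjusted threshold were 0.394%, 0.0%, 0.0%, 0.888%, 0.394% and 0.0% in the same order.

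**Figure D1:**
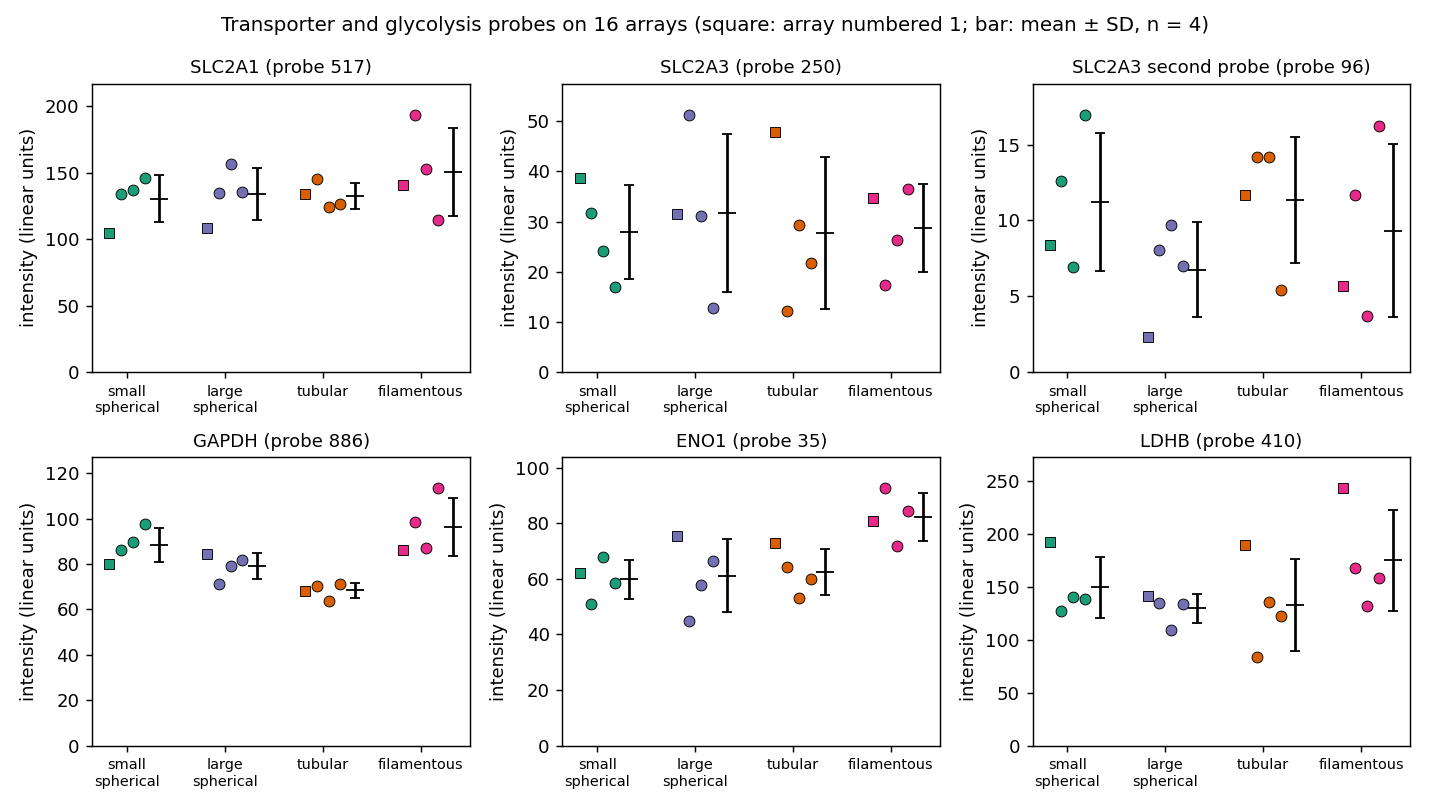
Linear intensity of each of the 6 probes (y axis) on the 16 arrays by stage (x axis); squares are arrays numbered 1, circles the others, and bars show the mean ± SD of 4 arrays. GAPDH was lowest in tubular conceptuses (63.9 to 71.4), ENO1 was highest in filamentous ones (71.7 to 92.6), and LDHB had its brightest array in the square of each stage.

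Of the transporters, SLC2A1 showed nearly level values across the stages. It read 105, 134, 137 and 146 on the small spherical arrays and 108, 135, 157 and 136 on the large spherical arrays, replicates 1 to 4 in turn. Tubular arrays read 134, 145, 124 and 126, and filamentous arrays 141, 194, 152 and 115. All stages overlapped: the highest value, 194, and one of the lower ones, 115, were both filamentous. Stage means were 130 ± 17.7, 134 ± 19.8, 132 ± 9.65 and 150 ± 32.9 in order of length (intensity, SD, n = 4). From small spherical to filamentous the fitted fold difference was 1.14, with a 95% interval of 0.878 to 1.49 (adjusted p = 0.73, limma). Between neighbouring stages the log2 differences were 0.04 ± 0.18, -0.01 ± 0.18 and 0.16 ± 0.18 (SE). On the 12 arrays numbered 2 to 4 the filamentous minus small spherical difference of SLC2A1 was 0.11 ± 0.20 and the tubular minus large spherical one -0.11 ± 0.20 (log2, SE). Leaving out 1 array moved the log2 difference of SLC2A1 from small spherical to filamentous, 0.19, to between 0.062 (without filamentous replicate 2) and 0.31 (without filamentous replicate 4), with 0.091 without small spherical replicate 1. It moved that from tubular to filamentous to between 0.030 and 0.28, without the same filamentous arrays. The range of its 4 stage means, 0.19 on the log2 scale, was larger than that of 15.3% of all probes.

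SLC2A3 was measured by a pair of probes that gave different patterns. The brighter probe, number 250, read 38.7, 31.8, 24.1 and 17.0 in small spherical conceptuses and 31.6, 51.4, 31.0 and 12.8 in large spherical ones. It read 47.9, 12.1, 29.3 and 21.7 in tubular and 34.7, 17.5, 26.4 and 36.4 in filamentous conceptuses. Within a stage these values spread over a wide range, so that stage means of 27.9 ± 9.42, 31.7 ± 15.8, 27.8 ± 15.2 and 28.7 ± 8.71 differed by far less than the SD of any stage. The second probe, number 96, was dimmer: in order of stage it read 6.91 to 17.0, 2.34 to 9.68, 5.4 to 14.2 and 3.73 to 16.2. Its lowest value, 2.34, amounted to only a few of the commonest steps between neighbouring intensities on its array. That step was 0.914 there and 0.815 to 1.67 over all arrays, so small differences at this level are not resolved.

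On all 16 arrays the 2 SLC2A3 probes had fitted differences of opposite sign in 6 of 6 comparisons between stages, which share the same 4 stage means. From small to large spherical the brighter probe differed by 0.09 ± 0.45 and the second by -0.82 ± 0.52 (log2, SE), and from large spherical to tubular by -0.20 ± 0.45 and 0.83 ± 0.52. None of these passed (adjusted p of 0.729 to 1, limma). Much of the second probe's pattern came with large spherical replicate 1, at 2.34: without it SLC2A3 second probe differences were -0.37 ± 0.48 and 0.38 ± 0.48 in these steps. On the 12 arrays numbered 2 to 4 the second probe gave -0.48 ± 0.55 and 0.33 ± 0.55, and the brighter one 0.22 ± 0.50 and -0.47 ± 0.50. For tubular against small spherical conceptuses the second probe gave 0.01 ± 0.52 on all 16 arrays. On the 12 arrays both probes were negative there, -0.25 ± 0.50 for the brighter and -0.15 ± 0.55 for the second. Over the 16 arrays the log2 intensities of the probes had a Pearson correlation of -0.12 (permutation p = 0.661, two-sided) and a Spearman correlation of -0.10 (permutation p = 0.707). Which of them follows SLC2A3 messenger RNA was not tested, so no direction is given for this gene. For filamentous against small spherical conceptuses the 95% interval of the brighter probe ran from 0.536-fold to 2.01-fold, and differences of that size cannot be told from none here.

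GAPDH, the enzyme of the oxidation step, was lowest in tubular conceptuses. It read 79.8, 86.1, 89.9 and 97.7 on the small spherical arrays and 84.6, 71.4, 79.1 and 81.8 on the large spherical arrays. The tubular values were 68.3, 70.5, 63.9 and 71.4, and the filamentous values 86.0, 98.3, 86.9 and 113. All 4 tubular arrays lay below every small spherical and every filamentous array, and 3 of 4 lay below every large spherical array. The filamentous arrays also lay above all large spherical arrays, but overlapped with the small spherical ones. Stage means were 88.4 ± 7.46, 79.2 ± 5.69, 68.5 ± 3.37 and 96.1 ± 12.8 (intensity, SD, n = 4).

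From tubular to filamentous conceptuses the fitted GAPDH fold difference was 1.40 (95% interval 1.14 to 1.7; log2 0.48 ± 0.14 SE). The unadjusted p of 0.00285 ranked it 2 of 1014 probes in this comparison, but no probe passed and its adjusted p was 0.994 (limma; 0 of 1014 passed, 34 had an unadjusted p below 0.05). Arrays of these stages without overlap, filamentous higher, were found for 1.97% of all probes. Against small spherical conceptuses the tubular value differed by -0.37 ± 0.14 (adjusted p = 0.235), and stages without overlap in that direction made up 2.76% of probes. Filamentous against large spherical conceptuses gave 0.27 ± 0.14 (adjusted p = 0.722; no overlap in that direction for 2.86% of probes). The same arrays enter several of these comparisons. The mean of small spherical and filamentous minus that of the middle stages was 0.32 ± 0.10 for GAPDH (unadjusted p = 0.0045, rank 15 of 1014, adjusted p = 0.304), while the trend over stage order was 0.01 ± 0.04 per step (adjusted p = 0.935). The contrast of the ends against the middle stages was chosen with earlier results of these data known, so its p and rank are no separate support. By limma it had an unadjusted p below 0.05 for 7.5% of all probes and passed for 0.0%.

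The lowest GAPDH values were tubular with and without the arrays that stood apart. On the 12 arrays numbered 2 to 4, GAPDH differed by 0.53 ± 0.16 between tubular and filamentous and by -0.41 ± 0.16 between small spherical and tubular conceptuses (adjusted p of 0.999 and 0.392, limma). Among the arrays numbered 1, GAPDH read 79.8, 84.6, 68.3 and 86.0 in order of stage, again lowest in the tubular one. Over 29 alternative settings the tubular to filamentous difference of GAPDH ran from 0.40 to 0.53 and its adjusted p from 0.381 to 1. GAPDH was also one of the steadiest probes within a stage: its pooled within-stage SD was 0.128 on the log2 scale, and 0.493% of all probes had a smaller one. The range of its stage means, 0.48, exceeded that of 60.2% of probes.

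**Figure D2:**
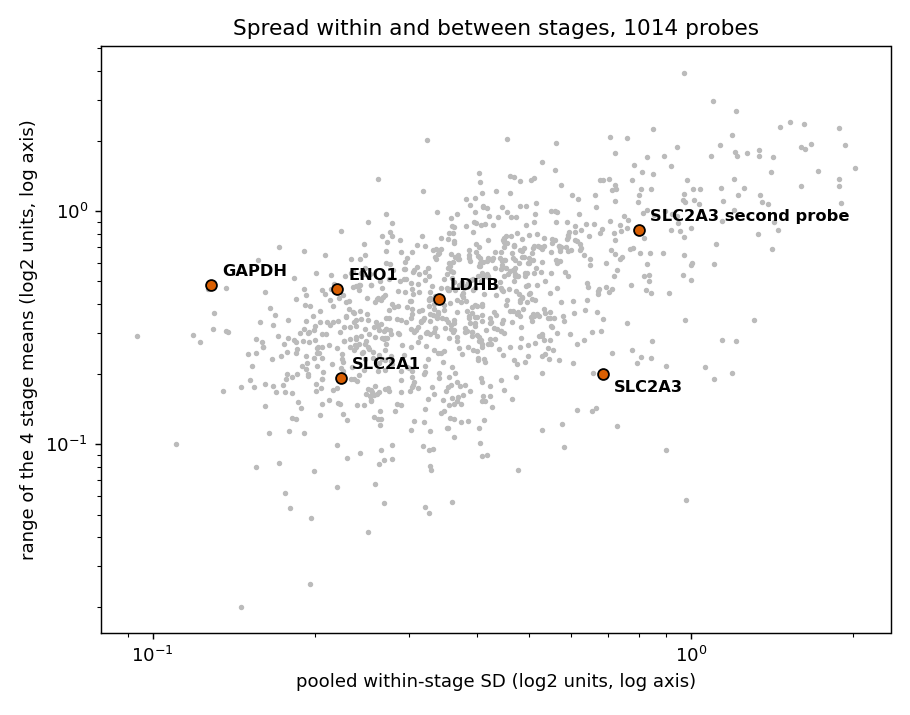
Range of the 4 stage means (y axis, log2 units on a log axis) against the pooled within-stage SD (x axis, log2 units on a log axis) for 1014 probes, with the 6 transporter and glycolysis probes marked and named. GAPDH lies at the left edge with an SD of 0.128, whereas the SLC2A3 probes lie to the right at 0.688 and 0.801, beyond 86.2% and 89.9% of probes.

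ENO1, the enolase of lower glycolysis, was highest in filamentous conceptuses. The small spherical arrays read 62.0, 51.0, 67.9 and 58.4, and the large spherical arrays 75.4, 44.7, 57.8 and 66.5. Tubular arrays read 72.8, 64.2, 53.1 and 60.0, and filamentous arrays 80.9, 92.6, 71.7 and 84.3. All 4 filamentous values lay above every small spherical value, and 3 of 4 above every value of the other stages; the exception, replicate 3 at 71.7, was below large spherical and tubular replicate 1. Stage means were 59.8 ± 7.09, 61.1 ± 13.1, 62.5 ± 8.25 and 82.4 ± 8.61 (intensity, SD, n = 4).

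For ENO1 the fitted fold difference from small spherical to filamentous was 1.38, with a 95% interval of 1.06 to 1.79 (log2 0.46 ± 0.18 SE, adjusted p = 0.223, limma, with 0.888% of all probes past the threshold). Its unadjusted p of 0.019 ranked 85 of 1014, in a comparison where 14.6% of all probes were below 0.05 and 4.54% had no overlap with filamentous higher. Tubular to filamentous the difference was 0.40 ± 0.18 (adjusted p = 0.994) and large spherical to filamentous 0.45 ± 0.18 (adjusted p = 0.722). The earlier steps gave 0.01 ± 0.18 and 0.05 ± 0.18, and the trend over stage order was 0.14 ± 0.06 per step (adjusted p = 0.241; of all probes 0.986% passed and 14.2% lay under 0.05 before adjustment). On the 12 arrays numbered 2 to 4 the filamentous minus small spherical difference of ENO1 was 0.49 ± 0.20 (adjusted p = 0.327). In same-numbered arrays, which the labels do not call pairs, ENO1 was higher in the filamentous one in 4 of 4 against each other stage. The same held for GAPDH against tubular and large spherical conceptuses and for LDHB against large spherical ones. The other counts with filamentous higher were 3 of 4 for GAPDH and LDHB, 2 to 3 of 4 for SLC2A1 and 2 of 4 for the brighter SLC2A3 probe. For the second SLC2A3 probe they were 0 to 3 of 4. The same filamentous arrays enter all of these counts. The share of all probes with such counts was not determined, so they cannot be set against a background.

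LDHB, the lactate dehydrogenase subunit, was brightest on the arrays numbered 1. Its probe is annotated to 2 genes that both carry the symbol LDHB, and their transcripts cannot be told apart here. It read 192, 128, 140 and 139 in small spherical and 141, 135, 110 and 134 in large spherical conceptuses. Tubular arrays read 189, 84.0, 136 and 123, and filamentous arrays 243, 168, 132 and 159. The array numbered 1 was the highest of its stage in 4 of 4 stages, by a mean of 0.53 on the log2 scale over the others, a pattern that 6.31% of all probes showed. All stages overlapped in LDHB, although 3 of 4 filamentous arrays exceeded every large spherical one.

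LDHB stage means were 150 ± 28.9, 130 ± 13.8, 133 ± 43.6 and 176 ± 47.7 (intensity, SD, n = 4). From tubular to filamentous the fitted fold difference was 1.34, with a 95% interval of 0.939 to 1.91 (log2 0.42 ± 0.24 SE, adjusted p = 0.994, limma). When the arrays numbered 1 were given a term of their own, the same difference of LDHB had a smaller error, 0.42 ± 0.17, and did not pass (adjusted p = 0.898). Without these arrays LDHB was 128 to 140, 110 to 135, 84.0 to 136 and 132 to 168 in order of stage, and the difference was 0.44 ± 0.20 (adjusted p = 0.999). Leaving out 1 array moved it to between 0.22 (without tubular replicate 2) and 0.61 (without tubular replicate 1), with 0.25 without filamentous replicate 1.

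**Figure D3:**
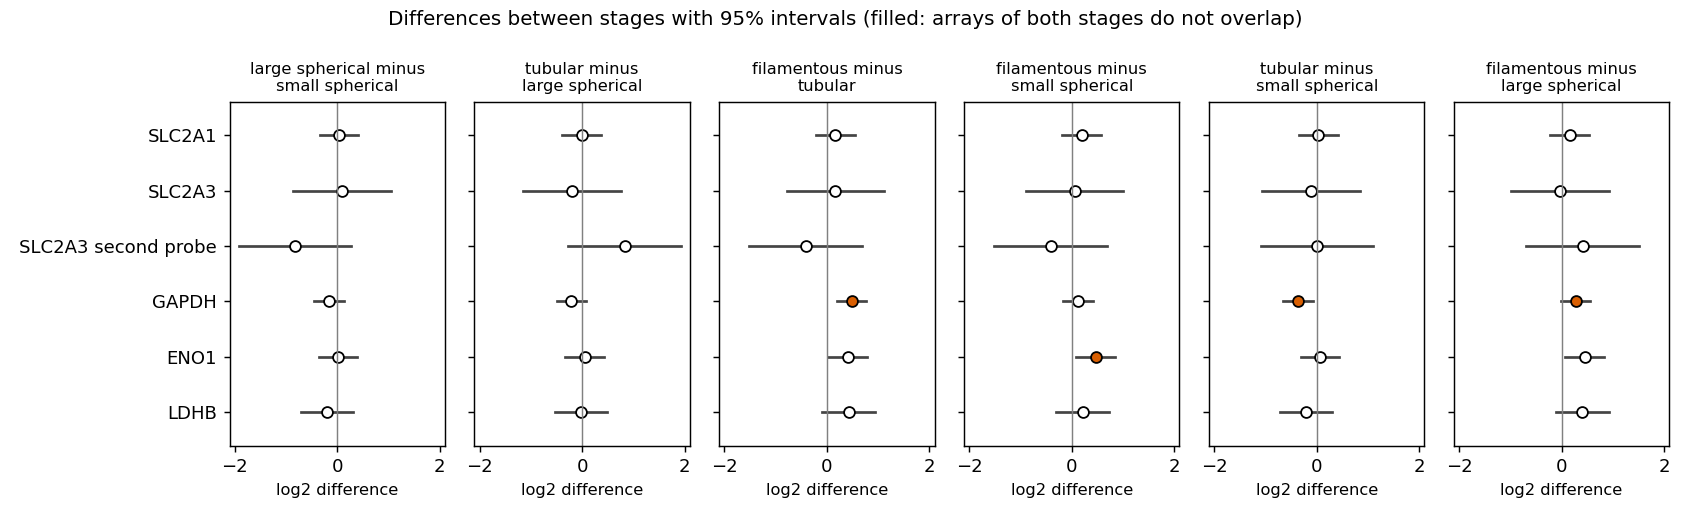
Fitted log2 difference (x axis) with its 95% interval for the 6 probes (y axis) in each of the 6 comparisons between stages, first-named minus second-named; filled points mark stages whose arrays did not overlap. Filled points are those of GAPDH in 3 comparisons and ENO1 in 1, and the widest intervals are those of the SLC2A3 probes.

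Without SLC2A3, whose probes differed in sign, 4 genes were left with 1 probe each. All 4 had a higher fitted value in filamentous than in tubular conceptuses (median log2 difference 0.41), where the median over all probes was 0.02 and 54.1% were higher. The 4 were also higher in filamentous than in small spherical conceptuses (median 0.20), where the median over all probes was -0.03 and 45.6% were higher. Both comparisons use the same filamentous arrays. LDHB differed by 0.21 in the latter, and by 0.014 without small spherical replicate 3 and filamentous replicate 1 together. From small to large spherical 2 were higher and 2 lower (median -0.07), and from large spherical to tubular 1 was higher and 3 lower (median -0.01), against medians over all probes of -0.03 and -0.04. None of these members passed in any of the comparisons, so these are descriptions of sign and size.

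Markers of other lineages had their highest sums in filamentous conceptuses, but single markers differed in sign. The summed intensity of 5 measured hypoblast and yolk sac markers (AFP, RBP4, TF, APOA1 and FN1, of 9 listed) ran over 303 to 424, 338 to 443, 374 to 429 and 436 to 592 in order of stage. That of 3 mesoderm markers (T, KDR and VIM, of 6 listed) was 59.7 to 69.8, 44.1 to 75.8, 55.3 to 90.1 and 79.8 to 121. Between small spherical and filamentous conceptuses 3 hypoblast and yolk sac markers were higher and 2, AFP and TF, lower (log2 -0.07 ± 0.24 and -1.37 ± 0.44), and 2 mesoderm markers were higher and T lower (-0.18 ± 0.62). None of these 8 markers passed there (limma), and the brighter ones weigh most in the sums. Trophectoderm markers summed to 402 to 633, 522 to 676, 515 to 628 and 443 to 687. Of blood markers only CD3E, of 8 listed, was measured, at 0.33 to 4.34 over all arrays, and of 7 endometrial markers ACP5 and PGR were measured, summing to 9.59 to 34.8. No measured marker was listed at 0. The part of these lineages in the GAPDH and ENO1 values was not tested, and fewer cells of a type cannot be told apart from less RNA per cell in whole conceptuses.

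Unequal change between paired genes was examined within each array, where a common scale factor drops out. The log2 difference ENO1 minus GAPDH averaged -0.57 ± 0.21, -0.40 ± 0.22, -0.14 ± 0.17 and -0.22 ± 0.16 in order of stage (SD, n = 4). From small spherical to filamentous it shifted by 0.35 (exact permutation test over 70 regroupings, two-sided, p = 0.0857, adjusted p = 0.457 over 8 tests, with 0.0286 the smallest p the design allows). From large spherical to tubular it shifted by 0.26 (exact p = 0.114, adjusted p = 0.457). For SLC2A1 minus the brighter SLC2A3 probe the shifts over the adjacent steps and over the whole interval lay between -0.05 and 0.19 (exact p of 0.743 to 0.971). None of the 8 tests passed, and none had an unadjusted p below 0.05. Tubular against small spherical conceptuses was not among these 8 tests. There ENO1 minus GAPDH ran over -0.27 to 0.09 in tubular and -0.76 to -0.37 in small spherical conceptuses, without overlap. GAPDH alone did not overlap between these stages either, so this is no separate observation. The share of gene pairs with such a separation was not determined.

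**Figure D4:**
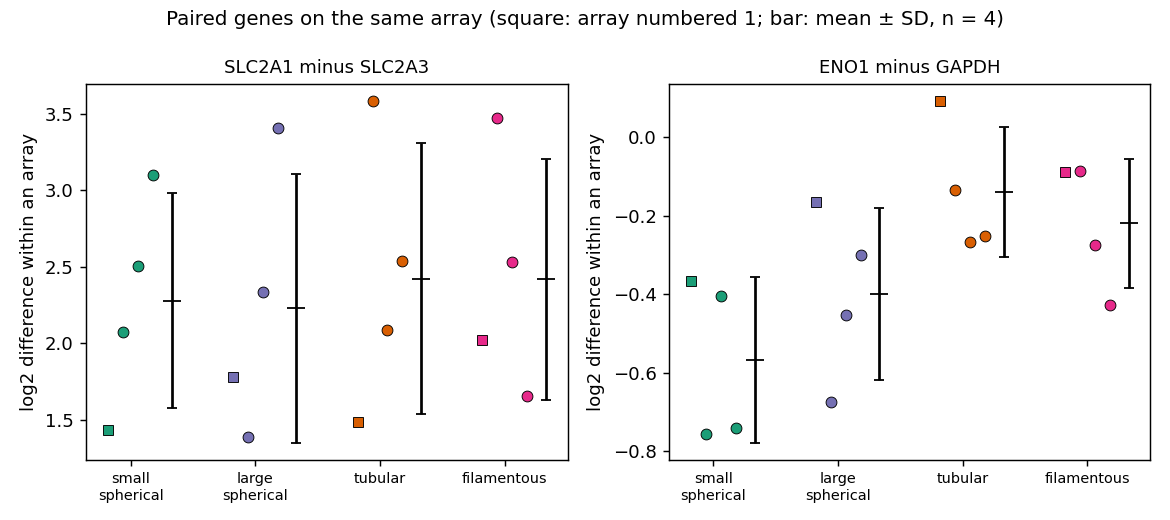
Log2 intensity of the first gene minus that of the second on the same array (y axis) by stage (x axis); squares are arrays numbered 1, and bars show the mean ± SD of 4 arrays. ENO1 minus GAPDH averaged -0.57 in small spherical and -0.14 in tubular conceptuses, whose arrays did not overlap (-0.76 to -0.37 and -0.27 to 0.09). This comparison was not tested, and GAPDH alone did not overlap there either. SLC2A1 minus SLC2A3, the latter by its brighter probe, spread over more than the stage means differ.

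From array to array the members followed each other loosely. Of 10 pairs of genes, 0 had a correlation past the threshold after adjustment over the pairs. SLC2A3 stands here for its brighter probe alone, which the second probe did not follow. GAPDH and ENO1 had the highest Pearson correlation, 0.55 (permutation p = 0.027, adjusted p = 0.239; Spearman 0.49, permutation p = 0.059, adjusted p = 0.163), over 16 arrays. It was 0.38 without the 2 arrays farthest from the median of GAPDH, 0.67 on the 12 arrays numbered 2 to 4, and 0.50 after removal of the stage means. SLC2A3 and LDHB correlated at 0.50 (permutation p = 0.0478, adjusted p = 0.239; Spearman 0.48, permutation p = 0.0653, adjusted p = 0.163), and at 0.31 on the 12 arrays. That pair had 0.28 without the 2 farthest arrays and 0.56 after removal of the stage means. ENO1 and LDHB had the highest Spearman correlation, 0.59 (permutation p = 0.0192, adjusted p = 0.163), with a Pearson correlation of 0.45 (permutation p = 0.0804, adjusted p = 0.262). The latter was 0.47 without the 2 farthest arrays, 0.38 on the 12 arrays and 0.26 after removal of the stage means. The transporters SLC2A1 and SLC2A3 correlated at -0.42 (permutation p = 0.105, adjusted p = 0.262; Spearman -0.51, permutation p = 0.0456, adjusted p = 0.163). Their Pearson correlation was -0.27 without the 2 farthest arrays, -0.35 on the 12 arrays and -0.47 after removal of the stage means.

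Among the 636 other named genes, those most like each member were found by Pearson correlation of log2 intensity over the 16 arrays, which share stage, array scale and the offset of arrays numbered 1. For GAPDH the nearest was BNIP3L, a mitophagy receptor of the outer mitochondrial membrane, at 0.85 (Spearman 0.80, and 0.89 on the 12 arrays). BNIP3L read 214 ± 25.2, 200 ± 33.3, 153 ± 19.4 and 218 ± 17.8 in order of stage (intensity, SD, n = 4), also lowest in tubular conceptuses. IL12B (0.66) and ECD (0.60) came next, IL12B at very dim values of 0.673 to 4.67 for its stage means, and ENO1 was number 11 in this order.

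For ENO1 the nearest was TGFB1, a secreted growth factor, at 0.89 (Spearman 0.92, and 0.90 on the 12 arrays), with 33.9 ± 10.5, 31.6 ± 17.1, 36.8 ± 7.15 and 56.3 ± 11.8 in order of stage. RAP1GDS1 (0.80) and the ribosomal protein gene RPS7 (0.73) followed. LDHB was most like CCT4, a subunit of the TRiC chaperonin, at 0.89, with 0.72 on the 12 arrays numbered 2 to 4, then NUP54 (0.81) and EIF4G2 (0.81). SLC2A1 was most like EIF3M (0.81), HMGB2 (0.81) and TDP2 (0.80). The brighter SLC2A3 probe was most like DBI (0.85), UBE2E3 (0.83) and NDC80 (0.83), a kinetochore gene. These values were the highest of many and are given without a test.

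**Figure D5:**
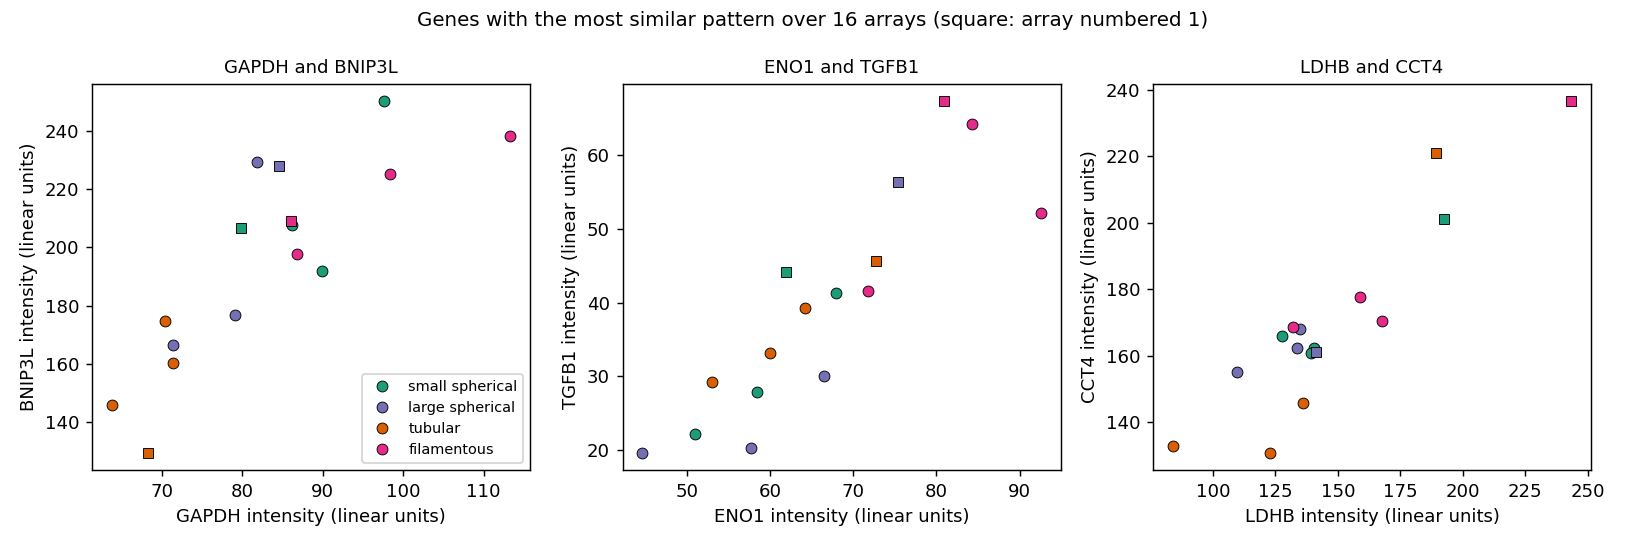
Intensity of GAPDH, ENO1 and LDHB (x axes) against that of the gene with the most similar pattern, BNIP3L, TGFB1 and CCT4 (y axes, linear units), on 16 arrays coloured by stage; squares are arrays numbered 1. GAPDH and BNIP3L are both low in the 4 tubular arrays, and 3 of the squares lie at the upper right for LDHB and CCT4.

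Other genes of sugar and energy metabolism were looked for in lists of 127 genes, of which 14 were measured. No further hexose transporter (of 9), glycolytic enzyme (of 24) or gene of lactate handling (of 8) was among them. None of the 14 passed in any of the 6 comparisons (limma), 7 were higher and 7 lower from tubular to filamentous conceptuses (median -0.05), and 5 were higher and 9 lower from small spherical to filamentous (median -0.16). For the latter 4 had an unadjusted p below 0.05, against 14.6% of all probes.

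In pyruvate dehydrogenase and the citrate cycle, 6 of 33 genes were measured. DLD, the dihydrolipoamide dehydrogenase subunit shared by mitochondrial 2-oxoacid complexes, had the smallest F test p of the 14 genes, with 46.4 ± 4.95, 50.02 ± 18.5, 72.0 ± 9.25 and 79.8 ± 10.6 in order of stage (adjusted p = 0.158). Its arrays read 39.3 to 51.0 in small spherical and 69.4 to 93.7 in filamentous conceptuses, with no overlap, and the difference was 0.78 ± 0.23 (log2, adjusted p = 0.14, limma). Over all probes 4.54% had no overlap between these stages with filamentous higher. The malate dehydrogenases MDH1 and MDH2 read 48.6 ± 8.45 and 88.8 ± 5.84 in small spherical and 42.6 ± 4.33 and 99.6 ± 19.4 in filamentous conceptuses. IDH3A, of the citrate cycle, read 58.5 ± 5.74 and 52.2 ± 8.11 in the same stages, and SUCLG1 and SDHD were the remaining measured genes.

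The pentose phosphate pathway, which branches from glycolysis to make ribose and NADPH, was represented by TALDO1 and RPIA. TALDO1, the transaldolase, averaged 225 ± 22.8, 225 ± 69.8, 185 ± 21.8 and 155 ± 35.1 in order of stage, and RPIA, the ribose phosphate isomerase, 282 ± 84, 223 ± 48.5, 212 ± 12.7 and 193 ± 32.6. From small spherical to filamentous they differed by -0.56 ± 0.21 and -0.51 ± 0.21 (log2, adjusted p of 0.223 and 0.274, limma), opposite in sign to ENO1, and neither passed. UGP2, which makes UDP-glucose for glycogen, averaged 30.7 ± 8.39 and 28.9 ± 10.5 in those stages.

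Of genes of oxygen and growth factor signals, 5 of 21 were measured. BNIP3L differed by 0.52 ± 0.16 from tubular to filamentous conceptuses (unadjusted p = 0.00516, adjusted p = 0.994, limma), with no overlap between the stages. Over all probes 1.97% had no overlap there with filamentous higher, and 3.35% had an unadjusted limma p below 0.05. BNIP3L was also the gene most like GAPDH over these same arrays, so its low tubular values are no separate observation. EGLN1, a prolyl hydroxylase that senses oxygen, was dim and averaged 8.58 ± 3.97 in small spherical and 21.7 ± 5.32 in filamentous conceptuses (log2 1.47 ± 0.52, adjusted p = 0.197). VEGFA, the vascular growth factor, was also measured and did not pass. IGF2 and IGF2R had stage means of 2.44 to 5.96 and 14.0 to 25.4, near the dim end of the arrays.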

How the data were processed

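The deposited table held 1 linear intensity per probe and array, for 1015 probes on 16 arrays, all of which were used. Per the labels, RNA was amplified and turned into a phosphorus-labelled target; scanning, background correction and normalization by the authors are not given in the sources used here. Values ran from 0.12 to 805. Array medians spanned 0.185 on the log2 scale, under a limit of 0.2, so log2 intensities were used with no pseudocount and no further scaling. A probe that was constant on all arrays was left out. In the platform annotation 676 probes had 1 symbol, 15 several and 324 none; a gene with several probes is given by the brightest. One mean per stage was fitted with limma 3.58.1 in R 4.3.3 (two-sided, Benjamini-Hochberg over 1014 probes). Permutation tests used 100000 resamples, or all regroupings for 4 against 4 arrays. In simulated data drawn from the means and spreads of these arrays, 200 of 1014 probes were changed for the filamentous against small spherical comparison. Of changes of 0.5 on the log2 scale 18.4% passed, of changes of 1 65.2%, and of changes of 2 93.1%. Noise there was independent between probes, and 200 changed probes are many beside the 9 that passed in the deposited data for this comparison. Benjamini-Hochberg adjustment passes a given change more easily when more probes change, so these shares may be too high for the deposited data.

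The members, lists and tests were chosen with earlier results of these data known. Named are all members, the 3 genes most like each, and the measured genes of the pathway and marker lists, with values for up to 4 genes of a pathway list, those with the smallest F test p. Same-numbered arrays deviated together in every pair for large against small spherical conceptuses only (correlations of 0.219 to 0.495); the source of the numbers is the sample titles, and the replicate block called 0 members there as well. In the other 5 comparisons at least 1 pair was under 0.1.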

Additional observations from a re-analysis of the deposited data

How the results depend on the processing

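Across 29 alternative settings for the 6 differences between stages, and 28 for the trend, the ends against the middle stages and the F test, 0 members passed by limma. In the 6 differences 0 pathway genes passed, and none of the unequal changes or correlations did where these were recomputed. The lowest adjusted p of any member was 0.0989, for GAPDH between tubular and small spherical conceptuses. The replicate block left the count of members passing at 0 in every comparison; for GAPDH between filamentous and tubular conceptuses it gave 0.48 ± 0.13 (adjusted p = 0.759). The direction of the GAPDH and ENO1 differences between filamentous and tubular conceptuses was kept in 29 of 29 alternatives.

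Signs turned for 9 of 24 followed differences, none of which passed (log2 values follow). The 24 cover only the adjacent steps and small spherical to filamentous. Signs also turned outside them. For tubular against small spherical the second SLC2A3 probe kept its sign in 16 of 28 alternatives and SLC2A1 in 25 of 29. The trend of GAPDH kept its sign in 26 of 28. Median centring, quantile and cyclic loess normalization gave -0.0033, -0.020 and -0.015 for SLC2A1 and small to large spherical, 0.017, 0.076 and 0.092 for SLC2A1 and large spherical to tubular, and 0.0052, 0.066 and 0.081 for LDHB and large spherical to tubular. Median centring gave -0.028 for ENO1 and small to large spherical. Removing the trend along probe number gave 0.034 for SLC2A1 (large spherical to tubular) and -0.043 for ENO1 (small to large spherical), and the 12 arrays numbered 2 to 4 gave -0.079 for the latter. Array weights gave -0.020 for SLC2A3 (small to large spherical), -0.0050 for SLC2A3 (small spherical to filamentous) and -0.029 for ENO1 (large spherical to tubular). Without small spherical replicate 3 and filamentous replicate 1 together, SLC2A3 gave -0.11 for small spherical to filamentous.

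Leaving out 1 array at a time gave -0.064 to 0.13 for SLC2A1 (small to large spherical), -0.10 to 0.075 for SLC2A1 (large spherical to tubular), and -0.099 to 0.15 and -0.091 to 0.16 for ENO1 in the same steps. SLC2A3 ran over -0.20 to 0.47 (small to large spherical), -0.58 to 0.14 (large spherical to tubular), -0.18 to 0.48 (tubular to filamentous) and -0.16 to 0.27 (small spherical to filamentous), and LDHB over -0.21 to 0.18 (large spherical to tubular). The filter on the dimmest 25% of probes removed both SLC2A3 probes and gave no value for them. Over all probes the number passing moved by more than 1.5 times: 1 to 36 for large against small spherical, 2 to 31 for filamentous against small spherical, 3 to 29 for tubular against small spherical, 3 to 26 for the trend, 0 to 5 for the ends against the middle stages and 1 to 17 for the F test. The SLC2A3 probes were dim, with a median brightness rank at the 22.5 and 5.79 percentile of an array.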
